A study of Rattus norvegicus with 18 samples.

Results

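Untreated primary rat Schwann cells, the myelinating glia of peripheral nerve, were described here through their transcriptome and, gene by gene, through the 5-hydroxymethylcytosine (5hmC) recovered at promoters and gene bodies. The members were the 32883 genes counted in the 3 control RNA libraries, taken by mean read count scaled to all reads in genes (CPM). They were set beside the 3 control libraries of hydroxymethylated DNA immunoprecipitation (hMeDIP) and the 3 control libraries of genomic input, which made 9 of the 18 samples of the series. All control cultures were primary Schwann cells taken at passage 3 without added vitamin C, and the remaining 9 libraries, from cells given vitamin C, entered no comparison. The labels do not say whether the numbered libraries came from separate animals or cultures, so p-values measure only the spread between these libraries, which may be technical. The sources used here do not give the strain, age or sex of the animals.

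5hmC is made from 5-methylcytosine by the TET dioxygenases, which need iron, 2-oxoglutarate and a reducing agent such as vitamin C. It is known to build up along the bodies of transcribed genes and to be scarce at CpG-rich promoters, where cytosines are mostly unmethylated. Schwann cells in culture keep an immature state with abundant matrix and lipid synthesis and raise the myelin genes when they differentiate.

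The RNA libraries held 23381814 to 33173282 reads assigned to genes. Another 36.5% to 42.5% of the counted RNA reads aligned to several places and were assigned to no gene, so the levels of genes with near-identical copies, such as ribosomal protein genes, Actb and Fth1, are uncertain. The hMeDIP libraries placed 30.8% to 35.7% of their reads in the listed peaks and the input libraries 8.49% to 8.65%. Counts of hMeDIP libraries 1 and 3 agreed within sampling noise (chi-square per degree of freedom 0.963) while library 2 differed from library 3 (1.47), so libraries 1 and 3 were summed and counted as 1 sample, which left n = 2 hMeDIP samples against n = 3 input samples. No pair of input libraries differed beyond sampling noise either (0.982 to 0.988), so by the same measure the 3 may be 1 sample. They were kept as 3, and summed as an alternative, which gave 11363 promoters and 11668 bodies above input in place of 11424 and 11689.

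The control RNA carried the defining Schwann cell markers at high levels. S100b (ENSRNOG00000001295), a calcium-binding protein of Schwann cells, stood at 1164, 1179 and 1247 CPM in libraries 1, 2 and 3. Sox10 (ENSRNOG00000011305), the transcription factor that specifies the lineage, stood at 605, 611 and 628 CPM. Cnp (ENSRNOG00000017496), a phosphodiesterase of myelin-forming glia, stood at 2359, 2452 and 2609 CPM. The 3 libraries of each marker lay close together, with standard deviations of 44.3, 12.4 and 126 CPM. All 9 matched genes of the Schwann cell list exceeded 100 CPM, and their summed level was 14497 to 15044 CPM in the 3 libraries.

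**Figure D1:**
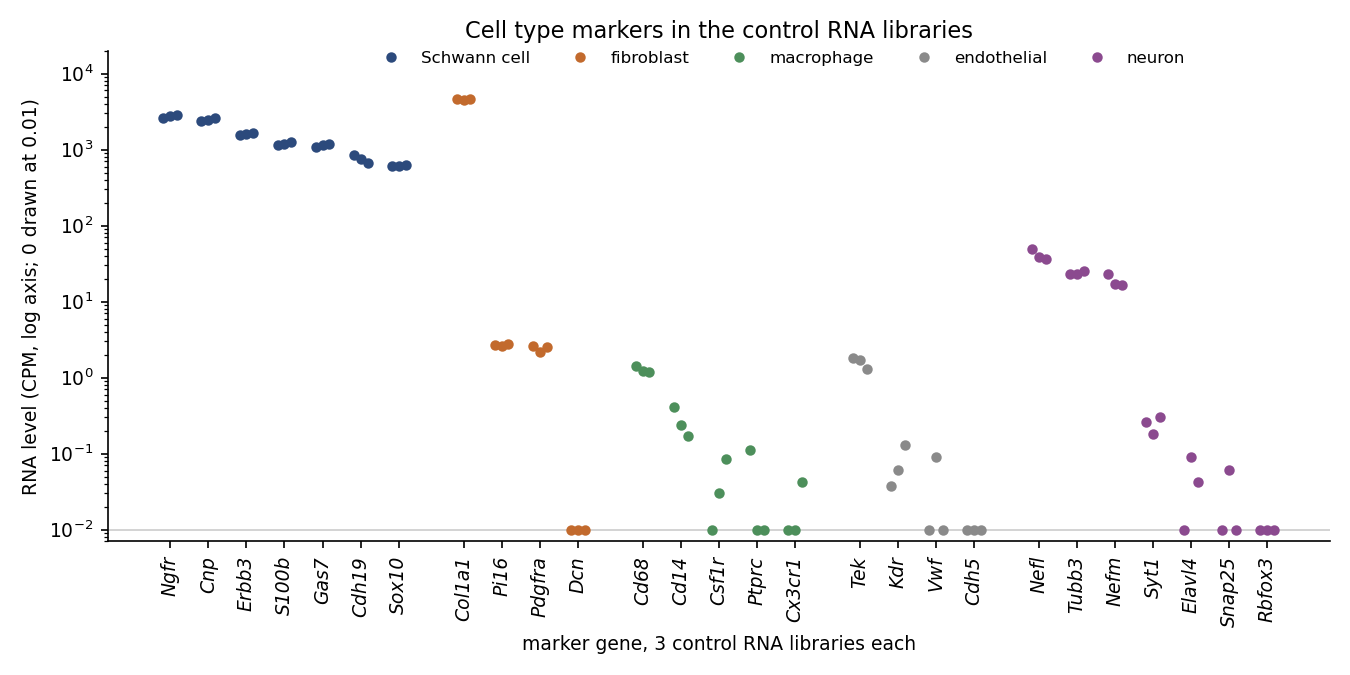
RNA level in CPM on a log axis for markers of 5 cell types, with 1 point per control RNA library (libraries 1 to 3 from left to right, 0 drawn at 0.01). The 7 Schwann cell markers drawn lie above 500 CPM in every library, whereas the 5 macrophage and 4 endothelial markers lie below 2 CPM.

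Markers of other cells were mixed, and some genes on each list of fibroblast, perineurial, mural, neuron, melanocyte and muscle markers had RNA reads. The 5 matched macrophage genes summed to 1.48 to 1.94 CPM, with Cx3cr1 at 0 reads in libraries 1 and 2. The 4 matched endothelial genes summed to 1.41 to 1.86 CPM, with Cdh5 at 0 reads in every library. Of the fibroblast list, Col1a1, a fibrillar collagen chain, reached 4598, 4465 and 4660 CPM, whereas Dcn, the matrix proteoglycan decorin, was at 0 reads in every library and Pdgfra, a growth factor receptor of fibroblasts, was at 2.57, 2.17 and 2.57 CPM. Neuron markers ranged from Nefl, a neurofilament subunit, at 49.4, 38.1 and 36.3 CPM to Rbfox3 at 0. The 5 matched perineurial genes summed to 212 to 240 CPM, led by the integrin subunit Itgb4 (102, 105 and 104 CPM) with the tight junction gene Cldn1 at 0.07, 0 and 0.04 CPM. The 7 mural genes summed to 75.7 to 78.5 CPM, of which Pdgfrb held 51.4, 51.2 and 51.6 CPM. The 5 melanocyte genes summed to 56.0 to 61.0 CPM, with Mlana at 0 in every library, and the 4 skeletal muscle genes to 117 to 168 CPM, led by the myosin heavy chain Myh3. The part of such cells in the values below was not tested.

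The 3 libraries differed little in gene levels. A mean of at least 1 CPM was reached by 11690 genes, and no read was counted in any control for 14360. The 10 most counted genes took 7.73% to 7.82% of the reads. Over the 8766 genes of at least 10 CPM, the median coefficient of variation between libraries was 4.47%, and it exceeded 50% for 5 genes. CPM is not divided by transcript length, since exon lengths were not analysed here, so the order of genes by CPM is an order of reads and not of molecules. The genes with a symbol and the most reads were Vim, an intermediate filament of immature Schwann cells (14145, 14840 and 14077 CPM), and Scd2, a stearoyl-CoA desaturase that supplies monounsaturated fatty acids to membranes (12186, 11517 and 12100 CPM). Among the 15 highest were also the neurotrophin receptor Ngfr (2629, 2787 and 2878 CPM) and the matrix proteins Col1a1, Sparc, Tnc and Reln.

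Peaks were joined to genes by the identifier in the authors' peak list, which places each peak by its centre as promoter (within 3 kb of a transcript start, upstream or downstream) or gene body. A promoter peak was listed for 11550 genes and a gene body peak for 11733, and 6280 genes had both. The sources used here do not give the rule by which peaks were called and merged, or whether treated libraries contributed to the list. Measured in the controls alone, edgeR's quasi-likelihood test found the summed promoter peaks of 11424 genes (98.9% of those tested) and the summed body peaks of 11689 genes (99.6%) above input at an adjusted p under 0.05. The list is of hMeDIP peaks of this same series. Regions picked for hMeDIP signal would lie above input, so these counts are no independent evidence of enrichment. The median log2 enrichment over input was 1.77 at promoters and 1.88 in bodies, or 3.41-fold and 3.69-fold.

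Genes with more reads in RNA more often had a 5hmC peak, and the rise was steeper for gene bodies. A body peak was listed for 6.93% of genes with no read in any control, 43.6% of genes under 1 CPM, 52.5% at 1 to 10, 67.3% at 10 to 100 and 81.3% at 100 CPM or more. For promoters the same classes gave 21.1%, 37.8%, 46.3%, 48.0% and 64.0%. Spans and biotypes are known only for genes with a peak. Of the 3623 such genes with no RNA read, 1419 are annotated as protein coding, 819 as lincRNA, 346 as miRNA, 311 as snRNA and 300 as snoRNA. A short gene has less body in which a peak could be listed, though some genes under 3 kb had a body peak, such as Fem1a at 2.195 kb. The part of gene length in these shares was not tested. Genes without any peak numbered 15880, of which 2503 reached 1 CPM and 243 reached 100 CPM. Of the 88 genes of at least 1000 CPM, 12 had none. The most counted of these, known here by identifier alone, were ENSRNOG00000054493 (11186, 11657 and 11676 CPM) and ENSRNOG00000034234 (10199, 9282 and 8619 CPM).

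**Figure D2:**
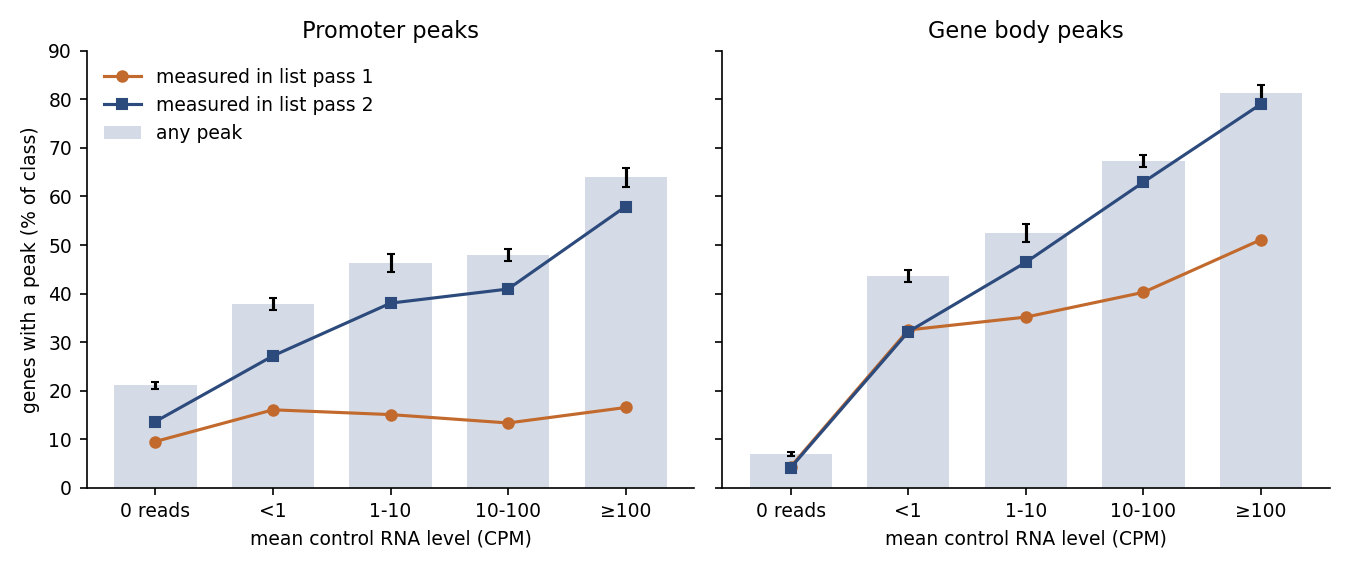
Percent of genes with a promoter peak (left) or gene body peak (right) in each class of mean control RNA level; bars are genes with any peak with exact 95% binomial intervals over genes (counting error only), and lines give genes with at least 20 input reads in the peaks of each pass of the peak list. Bars rise from 21.1% to 64.0% for promoters and from 6.93% to 81.3% for gene bodies, and the first pass of the promoter peaks stays between 9.54% and 16.5%.

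The peak list runs over the genome in 2 passes, which differ in peak width and enrichment. The 68432 peaks of the first pass had a median width of 507 bases and a median log2 enrichment of 2.14. The 147519 of the second had 715 bases and 1.58. The sources used here do not say what the passes are. The share of promoters with a first-pass peak was 9.54% for genes without reads, 16.1% under 1 CPM and 16.5% at 100 CPM or more, and with a second-pass peak it went from 13.7% through 27.2% to 57.9%. Body peaks rose in both, from 4.37% to 51.1% in the first and from 4.16% to 79.0% in the second.

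Enrichment itself ran the other way, and by far less. The median log2 enrichment of promoter peaks was 1.91 for genes with no RNA read, 1.88 under 1 CPM, 1.74 at 1 to 10, 1.61 at 10 to 100 and 1.61 at 100 CPM or more. In bodies it was 1.98, 2.01, 1.94, 1.82 and 1.74. Both hMeDIP samples showed it: from genes without reads to those of 100 CPM or more, the promoter median went from 1.94 to 1.64 in the sum of libraries 1 and 3 and from 1.85 to 1.51 in library 2. Across genes, the rank correlation of RNA level with enrichment was -0.22 for promoters (n = 11548 genes with at least 20 input reads; -0.21, -0.22 and -0.19 when libraries of 1 number were used) and -0.27 for bodies (n = 11733; -0.26, -0.29 and -0.19). These are descriptions: the genes share the libraries, and genes are not replicates.

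The inverse relation was smaller within each pass than over both. First-pass peaks made up 44.3% of the body peaks of genes without reads and 15.1% of those at 100 CPM or more, and 37.2% and 15.99% of their promoter peaks. Within the first pass the rank correlation was -0.07 at promoters and -0.03 in bodies, and within the second -0.14 and -0.11. Taking each gene's strongest body peak in place of the sum turned the correlation to 0.061. Genes with more reads also had more body peaks (a median of 6 for genes of 100 CPM or more that had any, against 1 for those without reads).

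**Figure D3:**
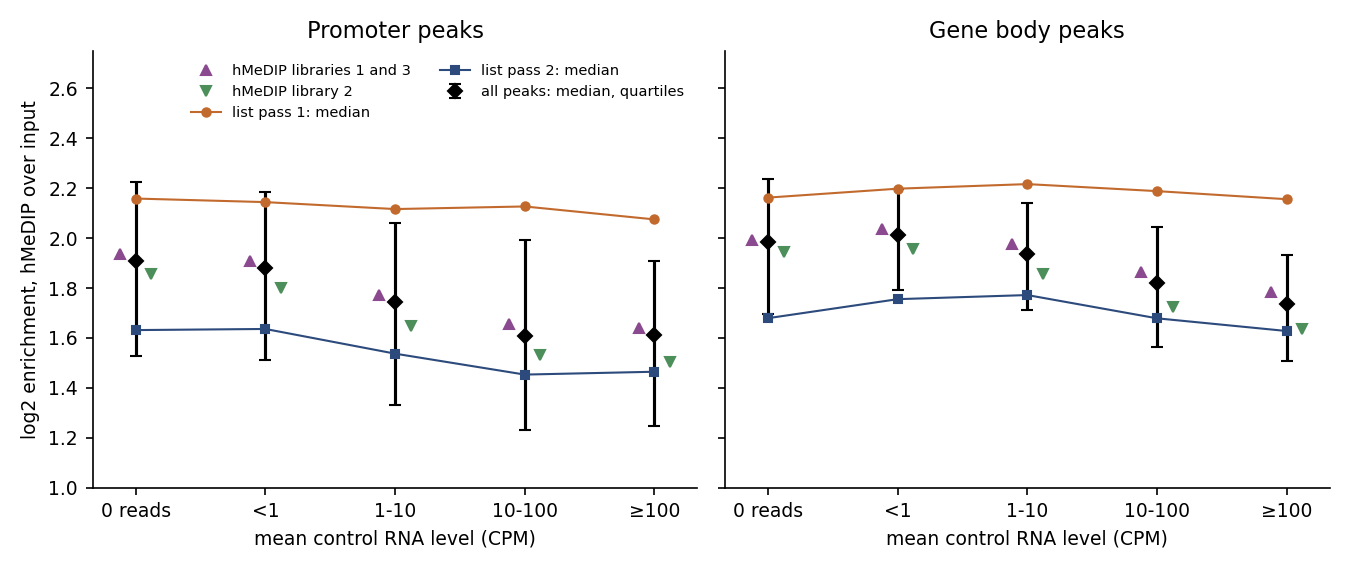
Median log2 enrichment of hMeDIP over input per gene in each class of mean control RNA level, for promoter peaks (left) and gene body peaks (right); diamonds with bars are medians and quartiles over genes, triangles the same medians in the 2 hMeDIP samples, and lines the medians within each pass of the peak list. The diamonds fall from 1.91 to 1.61 and from 1.98 to 1.74, and the first-pass line stays between 2.07 and 2.22.

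With the average peak as the reference (library size set to reads in peaks), promoter enrichment was above average for 1891 genes (16.4% of those tested) and below for 4518 (39.1%), and body enrichment above for 2594 (22.1%) and below for 4126 (35.2%), by edgeR at an adjusted p under 0.05. With trimmed-mean scaling the promoter split was 26.6% above and 27.4% below and the body split 27.7% and 29.7%, so the count on each side moved with the centring. The balance moved with RNA level. Promoters of genes without reads were above in 21.4% and below in 27.2%, and those of genes at 100 CPM or more in 9.81% and 52.5%. Bodies went from 25.6% above and 20.2% below to 10.6% and 58.6%.

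Body peak length as a share of gene span rose with RNA level. Here and below, this share of the span in peaks, or coverage, also counts any peak length past the gene's ends. Body peaks were longer than the span for 3 genes. For genes of at least 10 kb with any peak (n = 11011; the span is that of the transcripts in the peak list, and peaks were not trimmed at its ends), the median share of the span in body peaks was 3.42% without RNA reads, 4.49% under 1 CPM, 8.32% at 1 to 10, 8.48% at 10 to 100 and 12.8% at 100 CPM or more. In the longest of 5 equal groups of these genes by span, from 95.7 kb, the medians were 0.702%, 2.34%, 7.50%, 10.6% and 17.6%, and the rank correlation of RNA level with coverage was 0.59, against 0.16 in the shortest group; these are descriptions across genes of the same libraries. Summed over the span of all such genes, body peaks took 4.40% without reads, 4.41% under 1 CPM and 18.7% at 100 CPM or more. First-pass peaks alone took 1.69%, 1.59% and 2.43% of the span, and second-pass peaks 2.70%, 2.82% and 16.2%.

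The distance of peaks from the transcript start separated the classes downstream of it and hardly at it. A peak centred within 250 bases of a start was listed for 2.74% of genes without reads, 5.58% under 1 CPM, 3.65% at 10 to 100 and 5.37% at 100 CPM or more. Between 2 and 3 kb downstream, a bin of 1 kb, the shares were 1.79%, 7.14%, 15.1% and 26.2%. Between 5 and 10 kb they were 3.03%, 18.4%, 39.1% and 57.2%, where gene length may limit short genes. Upstream, where gene length plays no part, a peak 2 to 3 kb before the start was listed for 5.32% of genes without reads and 15.6% of those at 100 CPM or more.

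**Figure D4:**
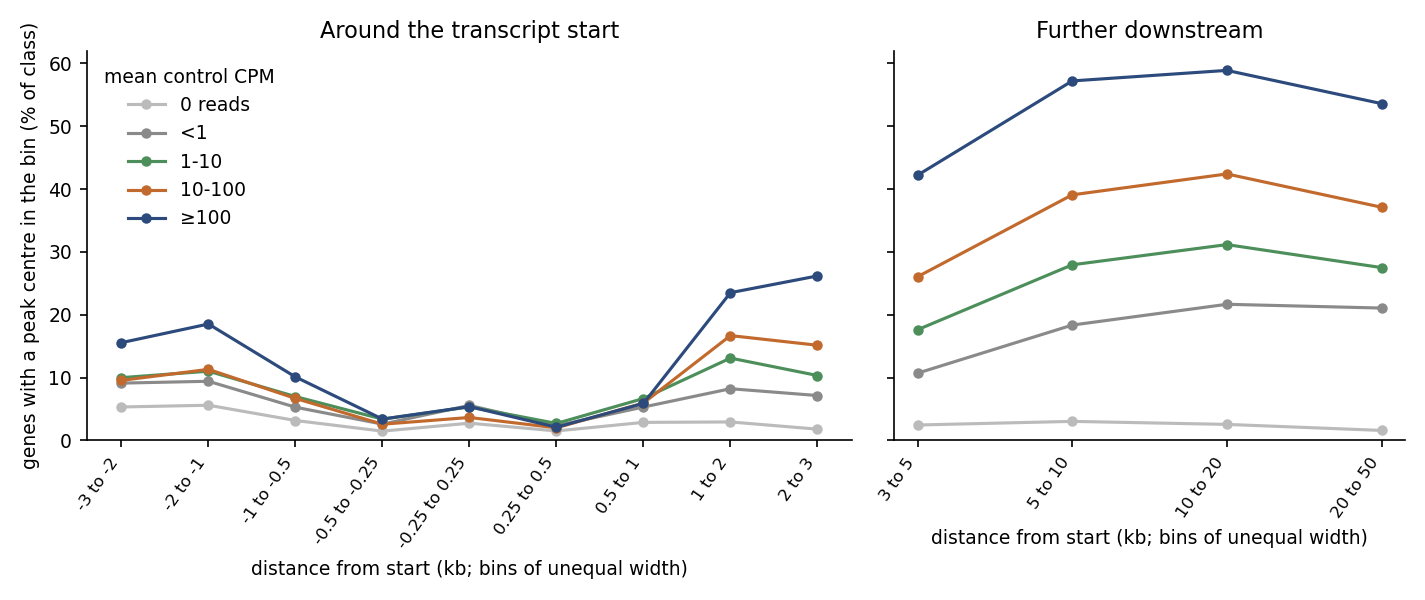
Percent of genes in each class of mean control RNA level with a peak centre in each bin of distance from the transcript start, in kb; bins differ in width, so levels compare between classes within a bin. All classes lie between 2.74% and 5.58% within 0.25 kb of the start, and the class of 100 CPM or more reaches 57.2% at 5 to 10 kb downstream against 3.03% for genes without reads.

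Promoter sequences show what lies at these starts. RefSeq's GRCr8 table held a promoter for 9198 protein-coding genes with a peak and a unique symbol, and the CG dinucleotide, where most methylated cytosine of mammalian DNA lies, was counted on 1 strand (it reads the same on both) in the 250 bases before the start. It occurs at least once in 92.5% of all 24206 promoters of the table with a unique symbol. In 3 groups by CG count (0 to 10, 11 to 20 and 21 to 56), a peak in the list's proximal promoter class was present for 8.84%, 3.71% and 3.62% of genes, and promoter peaks of any class for 65.3%, 57.8% and 60.3%. RNA level moved with CG count, from a median of 4 in genes without reads to 20 at 100 CPM or more. Within the group of fewest CG, genes at 100 CPM or more had a proximal peak in 11.02% (27 of 245 genes) and genes without reads in 8.60% (52 of 605).

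The stretches for both markers with an entry, the 2 most counted genes and a silent gene with high promoter 5hmC are shown, 5′ to 3′ on the gene's strand and ending at the base before the start, with each CG in capitals. S100b lies at chr20:12381082-12381331 on the minus strand, Cnp at chr10:86011254-86011503, Scd2 at chr1:253118127-253118376, Vim at chr17:81577011-81577260 and Itgax at chr1:192149799-192150048, these 4 on the plus strand (GRCr8).
S100b: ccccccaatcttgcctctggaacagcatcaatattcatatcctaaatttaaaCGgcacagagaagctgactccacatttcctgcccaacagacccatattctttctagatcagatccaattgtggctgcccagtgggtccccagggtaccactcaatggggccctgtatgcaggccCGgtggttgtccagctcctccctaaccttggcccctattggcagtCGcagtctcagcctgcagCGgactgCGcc
Cnp: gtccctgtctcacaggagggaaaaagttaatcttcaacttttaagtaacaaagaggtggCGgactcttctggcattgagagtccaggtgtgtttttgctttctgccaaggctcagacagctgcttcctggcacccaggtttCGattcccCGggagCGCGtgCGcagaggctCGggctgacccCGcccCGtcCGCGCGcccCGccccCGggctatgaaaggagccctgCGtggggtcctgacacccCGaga
Scd2: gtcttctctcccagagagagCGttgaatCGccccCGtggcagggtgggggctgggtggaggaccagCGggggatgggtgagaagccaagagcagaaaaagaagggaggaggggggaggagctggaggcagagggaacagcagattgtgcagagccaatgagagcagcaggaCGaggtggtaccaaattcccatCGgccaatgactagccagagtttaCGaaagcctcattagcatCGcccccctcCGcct
Vim: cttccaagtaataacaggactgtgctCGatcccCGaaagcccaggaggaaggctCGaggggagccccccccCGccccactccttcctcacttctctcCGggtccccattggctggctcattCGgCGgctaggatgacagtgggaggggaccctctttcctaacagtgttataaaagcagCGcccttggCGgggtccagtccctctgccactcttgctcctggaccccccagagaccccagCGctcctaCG
Itgax: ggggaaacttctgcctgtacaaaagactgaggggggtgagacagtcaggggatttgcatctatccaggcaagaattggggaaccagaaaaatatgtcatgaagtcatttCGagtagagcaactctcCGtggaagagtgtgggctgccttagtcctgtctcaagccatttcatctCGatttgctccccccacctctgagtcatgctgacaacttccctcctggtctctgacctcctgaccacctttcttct
S100b has 5 CG and Itgax 3, Scd2 has 9, Vim 11 and Cnp 16. In the authors' list, whose build the sources used here do not name, S100b has a peak 1307 bases wide with its centre at -733 bases from the start, and Cnp a peak 519 bases wide at -738 bases. Vim has no promoter peak listed.

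At the markers, the promoter was more enriched than the body for S100b and Sox10 and not detectably so for Cnp. Of 2 S100b promoter peaks, 1 lay at chromosome 20, 13142936 to 13144243. Over that peak hMeDIP libraries 1, 2 and 3 held 249, 211 and 295 reads and input libraries 48, 47 and 57. Every hMeDIP library was thus above every input library, in libraries of 77868883 to 92722840 counted reads for hMeDIP and 83233328 to 111336681 for input. The 2 S100b promoter peaks, summed, reached a log2 enrichment of 2.56 ± 0.11 (SE, edgeR) and the 4 body peaks 1.78 ± 0.09. The difference was 0.77 ± 0.10 (edgeR interaction, adjusted p = 4.27e-09). Of these body peaks 1 was centred past the end of the gene, 13123 bases from the start. The Sox10 promoter peak, chromosome 7, 120403364 to 120403724, centred 21 bases before the start, held 66, 67 and 75 hMeDIP reads and 18, 11 and 14 input reads. Its enrichment was 2.47 ± 0.22 against 1.33 ± 0.10 in the body, which differed by 1.15 ± 0.24 (adjusted p = 3.11e-05 by edgeR). The call of its promoter as above the average peak (adjusted p = 0.041 by edgeR) was lost without hMeDIP library 1 or 2 or input library 2 or 3 (adjusted p = 0.0521 to 0.205), with DESeq2 (adjusted p = 0.194) and with the input libraries summed (adjusted p = 0.0669 by edgeR). Cnp had 1.68 ± 0.20 at the promoter, chromosome 10, 88489801 to 88490320, and 1.57 ± 0.12 in the body, with a difference of 0.10 ± 0.22 (adjusted p = 0.709 by edgeR), which is within 1 SE of 0.

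Among all 6280 genes with both classes of peak, the promoter was more enriched than the body of the same gene in 1216 (19.4%) and less in 2199 (35.0%) by the edgeR interaction test. The share with the higher promoter was 20.8% in genes without RNA reads and 19.6% at 100 CPM or more, and that with the lower promoter was 24.6% and 35.5%. The rank correlation of promoter with body enrichment was 0.11 over these genes, which share their libraries. Among the widest gaps, chosen by these values, were some in each direction. Prelid3b, a mitochondrial lipid carrier, had 1.08 ± 0.20 at the promoter and 3.75 ± 0.12 in the body. Kdm4a, a histone demethylase, had 0.21 ± 0.22 and 2.40 ± 0.08. Conversely Phrf1, a ubiquitin ligase, had 3.29 ± 0.14 and 0.84 ± 0.14, and Pigf, of glycosylphosphatidylinositol anchor synthesis, 3.51 ± 0.14 and 1.13 ± 0.13.

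Several genes that mark Schwann cells had body peaks adding up to much of their span. Body peak length equalled 98.2% of the span of Ngfr, 68.8% of S100b and 67.1% of Erbb3 (the neuregulin receptor). It was 55.4% for Gas7 and 35.1% for Sox10, but 2.60% for Cdh19. Part of this length lay past the ends of S100b and Ngfr. In S100b, 1 of the 4 body peaks was centred 13123 bases from the start, beyond its span of 12.2 kb. In Ngfr, a peak 11428 bases wide was centred 16549 bases from the start, in a span of 18.2 kb. The median of the 7 list members of at least 10 kb was 55.4%. Over all genes of that length with a peak it was 7.21%, and over those at 100 CPM or more 12.8%. Enrichment was not higher in the same way: of the 9 bodies, 2 were above and 5 below the average peak (22.2% and 55.6%, beside 22.1% and 35.2% of all genes tested; the calls of Ngfr above and S100b below were each lost under some settings), and the median log2 enrichment was 1.78 beside 1.87. The promoters of this list had a median of 2.02 beside 1.76 over all genes, with 3 of 9 above the average peak and 0 below (33.3%, beside 16.4%, and 0, beside 39.1%). Of these 3, S100b kept the call under every setting run, Sox10 lost it as given above, and Ngfr, at 2.31 ± 0.11, lost it when only peaks within 1 kb were used. All 9 genes were at 100 CPM or more. In that RNA class as a whole, bodies were above in 10.6% and below in 58.6%, and promoters in 9.81% and 52.5%.

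**Figure D5:**
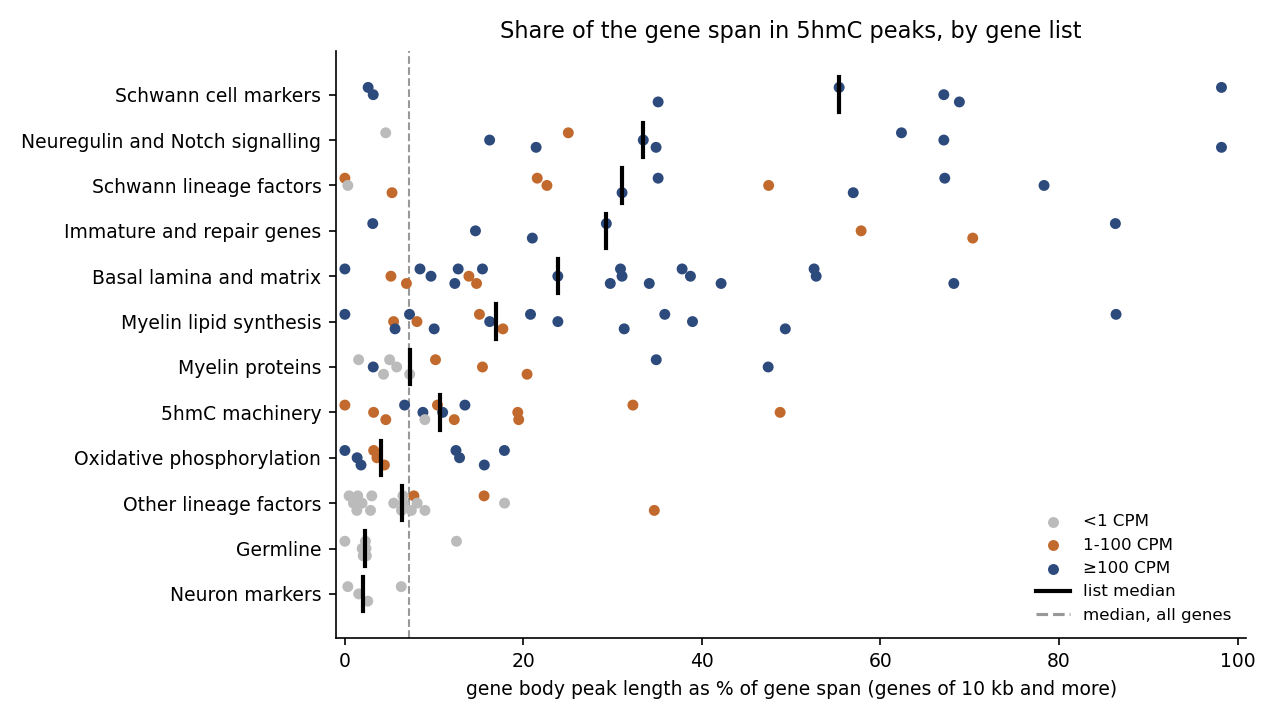
Body peak length as a percent of gene span for members of 12 gene lists of at least 10 kb, 1 point per gene coloured by mean control CPM, with the list median as a black bar and the median over all genes as a dashed line. The median of the Schwann cell markers is 55.4% and that of the 4 neuron markers 2.06%, beside 7.21% over all genes. Medians not drawn are 12.8% for genes at 100 CPM or more and 4.49% for genes with reads but under 1 CPM.

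The receptors and effectors of neuregulin and Notch signalling, which regulate Schwann cell growth and myelination, were covered to a median of 33.4% of the span over 9 genes of at least 10 kb. Erbb3 stood at 1580, 1588 and 1643 CPM and its promoter (2.02 ± 0.13) and body (1.97 ± 0.08) differed by less than 1 SE (difference 0.02 ± 0.11, adjusted p = 0.88 by edgeR). Its partner Erbb2, at 78.2, 81.4 and 83.3 CPM, had a body above the average peak (2.45 ± 0.09) and a promoter below it (1.47 ± 0.13), which differed by -1.01 ± 0.13 (adjusted p = 4.48e-10 by edgeR). The ligand Nrg1, made by axons in nerve, had 0.04, 0.06 and 0 CPM and 4.57% of its span in peaks. Of the 11 bodies 2 were above and 6 below the average peak (18.2% and 54.5%, beside 22.1% and 35.2% of all genes), and of the 9 promoters 1 and 5 (11.1% and 55.6%, beside 16.4% and 39.1%). Of the 11 matched genes 8 were at 100 CPM or more, a class with 58.6% of bodies and 52.5% of promoters below.

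Transcription factors of the lineage had a median coverage of 31.1% over 11 genes, and 10 of their 13 bodies were below the average peak (76.9%, beside 35.2% of all genes). Of the 16 matched factors 15 were at 1 CPM or more, a class with 43.4% of bodies below. At 100 CPM or more were 7 of them, a class with 58.6% below. Zeb2, a repressor needed for differentiation (67.2% of its span in 43 body peaks), Ets1 (78.3%), Runx2 (57.0%) and the Hippo pathway partner Tead1 (47.5%) were the most covered. The promoters of Zeb2 (0.90 ± 0.17) and Ets1 (0.69 ± 0.17) were below their own bodies (1.58 ± 0.08 and 1.92 ± 0.08). Egr2, the main regulator of myelination, was low, at 2.57, 1.90 and 1.92 CPM, with the opposite order: 2.17 ± 0.15 at the promoter and 0.58 ± 0.21 in its body, a difference of 1.60 ± 0.25 (adjusted p = 7.87e-08 by edgeR). Pou3f1, which acts before Egr2, stood at 11.6, 12.03 and 11.7 CPM with a promoter enrichment of 2.98 ± 0.14, above the average peak.

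Myelin proteins ranged from covered and expressed to thinly covered and without RNA. Pmp22 (47.4% of the span in peaks) and Mbp (34.9%, at 150, 157 and 158 CPM) were covered, and the median of the 11 members of at least 10 kb was 7.26%. Mag, an adhesion molecule of the inner myelin membrane, had 0.04, 0.06 and 0 CPM, and Mobp had 0 reads in every library; their spans were covered to 5.80% and 5.01%. Promoters were above the average peak in 4 of 14 members and below in 3 (28.6% and 21.4%, beside 16.4% and 39.1% of all genes), and those above were Mbp, expressed, and Gldn, Mog and Nfasc, at 1.90 CPM or less in every library. The call of Nfasc was lost without input library 1. Mbp had 2.34 ± 0.11 at the promoter against 1.94 ± 0.08 in the body (difference 0.40 ± 0.08, adjusted p = 9.53e-06 by edgeR). Prx, periaxin of mature myelin, had the opposite order, 1.02 ± 0.12 against 2.18 ± 0.09.

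Genes of myelin lipid synthesis, all 18 matched members of which exceeded 1 CPM, had the most promoters below the average peak of the glial lists: 11 of 16 (68.8%, beside 39.1%), with 1 above, and a median log2 enrichment of 1.29 beside 1.76. Of the 18 members 14 were at 100 CPM or more, a class with 52.5% of promoters below. Hmgcs1, the cholesterol pathway synthase, had 0.67 ± 0.22 at the promoter and 0.80 ± 0.11 in the body at 329, 297 and 304 CPM. Srebf2, the sterol-sensing transcription factor, had 0.52 ± 0.21 and 1.60 ± 0.08. Fasn, fatty acid synthase, at 1550, 1343 and 1636 CPM, had 1.16 ± 0.13 at the promoter and no body peak listed. Scd2 was the 1 above, with a promoter of 2.45 ± 0.14, above the average peak. Its single body peak, 11283 bases wide, ran past the end of the gene, and its length equalled 86.4% of the 13.06 kb span. Housekeeping genes of the cytoskeleton and glycolysis had 0 promoters above the average peak (beside 16.4%) and 6 of 10 below (60.0%, beside 39.1%). Ldha at 0.89 ± 0.13 and Fth1, the ferritin heavy chain, at 0.38 ± 0.21 were among those below. Ribosomal protein promoters were below in 5 of 9 (55.6%) and above in 2 (22.2%, beside 16.4% of all genes). All 11 matched housekeeping genes and 9 of 11 ribosomal protein genes were at 100 CPM or more. In that class 52.5% of promoters were below and 9.81% above.

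Matrix and basal lamina genes had a median coverage of 23.9% over 21 genes, and 13 of 21 bodies were below the average peak (61.9%, beside 35.2%). Of the 23 matched genes 17 were at 100 CPM or more, a class with 58.6% of bodies below. Sparc, a matrix protein at 3801, 3712 and 3787 CPM, had 68.2% of its span in peaks, with 1.97 ± 0.13 at the promoter and 1.30 ± 0.08 in the body. The laminin receptor subunit Itga7 (2.54 ± 0.10) and the laminin chain Lama4 (2.50 ± 0.11) had promoters above the average peak. Of genes of immature and repair Schwann cells, the growth factor genes Fgf5 (86.3%) and Gdnf (70.3%) had high coverage, at 153 to 165 and 41.5 to 44.4 CPM.

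All 3 TET enzymes that write the mark had RNA reads: Tet1 stood at 11.3, 9.89 and 11.03 CPM. Tet2 stood at 40.03, 36.0 and 38.2 CPM, and Tet3 at 85.4, 79.8 and 90.3 CPM. Tet3 had 48.8% of its span in peaks, Tet2 12.3% and Tet1 4.58%. Idh1, which makes the 2-oxoglutarate that TET enzymes use, had a body at 2.58 ± 0.12 and a promoter at 1.05 ± 0.17, with a difference of -1.53 ± 0.20 (adjusted p = 8.4e-10 by edgeR). Dnmt1, the maintenance methyltransferase, had a body at 2.23 ± 0.09, above the average peak. Gulo, the last enzyme of vitamin C synthesis in the rat, had 0 RNA reads in every control and a body enrichment of 3.14 ± 0.14, for which it was chosen among silent genes.

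Transcription factors of other lineages and germline genes were mostly under 1 CPM, whereas most Hox genes were not. Of 25 matched lineage factors 7 reached 1 CPM, and the median coverage was 6.42%, beside 7.21% over all genes of at least 10 kb with a peak. Among the lineage factors 7 of 20 bodies were above the average peak and 3 below (beside 22.1% and 35.2% of all genes). In all genes under 1 CPM, those without reads included, 29.6% of bodies were above and 19.0% below. Gata2, a factor of blood and neural progenitors, stood apart, at 41.4, 44.9 and 45.2 CPM with body peak length equal to 89.3% of its 8.78 kb. Of 8 matched germline genes 0 reached 1 CPM, 2 of 3 promoters were above the average peak and 1 below (beside 16.4% and 39.1% of all genes), 3 of 6 bodies were above and 1 below (beside 22.1% and 35.2%), and the median coverage was 2.30%. In all genes under 1 CPM, where these germline genes lay, promoters were above in 21.0% and below in 28.4%. Of 15 matched Hox genes 12 reached 1 CPM, with 6 of 12 promoters below the average peak and 0 above (beside 39.1% and 16.4% of all genes). Most of the Hox genes were at 1 to 10 CPM, a class with 41.2% of promoters below and 14.0% above. The 3 Hox genes of at least 10 kb had a median coverage of 25.8%. Chosen for their enrichment, the strongest promoters of silent genes included Itgax, an integrin of myeloid cells (3.45 ± 0.13), and Sim2, a neural transcription factor (3.29 ± 0.23). The strongest of expressed genes were the cytokine signalling inhibitor Socs3 (3.68 ± 0.15 at 13.6, 14.4 and 14.5 CPM) and Paf1 of the elongation complex (3.66 ± 0.13). At the other end, the lowest promoter was that of Eef1akmt1, a lysine methyltransferase (-0.31 ± 0.29, at 17.5, 18.8 and 22.0 CPM). Next came Zfp775, a zinc finger gene (-0.28 ± 0.33, at a mean of 23.8 CPM), then Mxi1 (-0.09 ± 0.29), Sod1 (-0.07 ± 0.32) and Tcf25 (-0.05 ± 0.20), whose mean levels were 99.98, 152 and 297 CPM.

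On the X chromosome, promoter peaks had a median log2 enrichment of 2.03 (198 genes) beside 1.76 on the autosomes, whose medians ranged from 1.70 to 1.83. For body peaks the X, at 1.96 (250 genes), lay within the range of the autosomes, 1.83 to 1.98. The X promoters were above the average peak in 24.2% and below in 22.2%, beside 16.2% and 39.4% on the autosomes. Among genes of at least 1 CPM the medians were 1.87 on the X and 1.64 on the autosomes.

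Antisense and overlapping genes could not be told apart, since the sources used here do not give strand use in the counting, and each peak is joined to 1 gene. Enrichment by antibody against input gives the density of 5hmC in a peak relative to the genome and not the share of modified cytosines, and it depends on how many CG a peak holds.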

How the data were processed

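RNA, hMeDIP and input counts were analysed as deposited: whole-number read counts per gene and per peak, deposited by the authors. Per the submitters' processing notes the tools were CASAVA 1.4, Trim Galore, STAR, BWA and HTSeq; the sources used here do not give their roles, the genome build or the peak caller. Peak positions, widths and distances (other units) are those of the authors' deposited peak list. Distances equalled the peak centre minus the transcript start within 2 bases for all 109330 peaks with a gene. RNA was ribosomal RNA depleted, per the labels' protocols.

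Rows that name no gene or peak were left out of CPM and kept as library size for enrichment. Enrichment was log2 of hMeDIP over input reads per counted read, with 1 read added and at least 20 input reads per gene. Promoter peaks were the proximal, 1 kb and 3 kb classes. Tests used edgeR 4.0.16 (R 4.3.3) with a quasi-likelihood fit on counts summed per gene, at least 20 reads, and Benjamini-Hochberg adjusted p under 0.05, with DESeq2 1.42.0 as an alternative. On simulated counts, edgeR recovered 42% of 1.5-fold and 87% of 2-fold changes over 11550 promoters, and 78% and 97% over 11733 bodies. False calls numbered 7 and 12. The simulation used a dispersion set in advance and few changed genes, so these shares are not the power of the tests on the real counts. Named genes were the markers, the 15 with most reads, the extremes of enrichment and of promoter against body, silent genes with strong peaks, and the leading members of 23 gene lists (246 of 385 symbols matched; symbols exist only for genes with a peak). Outside that rule, Rbfox3, Nrg1, Tead1, Egr2, Srebf2, Mag, Mobp, Prx, Gldn, Mog, Nfasc and the Tet genes were named after their values were seen. The members and lists were chosen with earlier results of these data known. Some genes counted in the lists are not reported here by name.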

Additional observations from a re-analysis of the deposited data

How the results depend on the processing

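Set against library sizes of reads in peaks, or with trimmed-mean factors, the genes above input fell by construction to 1891 and 3070 at promoters and 2594 and 3250 in bodies, since both settings centre on the average peak. With trimmed-mean factors 3069 promoters were above the average peak, and with DESeq2 1182. Restricting promoters to the classes within 1 kb, which leaves fewer genes, gave 5182 above input, 839 above and 2054 below the average peak, and 516 higher and 1013 lower than their own body. Leaving out 1 library gave 11327 to 11449 promoters and 11654 to 11691 bodies above input, 1579 to 1939 promoters above and 3887 to 4476 below the average peak, 2200 to 2681 bodies above and 3625 to 4165 below, and 969 to 1220 promoters higher and 1823 to 2163 lower than their body.

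The rank correlation of RNA level with promoter enrichment was -0.24 in protein-coding genes, -0.16 for the strongest peak, -0.086 in genes of at least 1 CPM, and -0.070 and -0.14 within the passes of the peak list. For bodies it reversed to 0.061 with the strongest peak and was -0.32 with the median of peaks, -0.20 in genes of at least 1 CPM, and -0.026 and -0.11 within the passes. In 5 equal groups of genes by span it was -0.20 in the shortest, -0.34 in the next to longest and -0.44 in the longest. The cause was not tested. Without 1 library it was -0.23 to -0.22 for promoters and -0.29 to -0.25 for bodies. With the input libraries summed as 1 sample, 1703 promoters were above and 4159 below the average peak, 2209 bodies above and 3691 below, and 1161 promoters higher and 2131 lower than their body. The alternatives by list pass and by at least 1 CPM, the summed input and the block below were chosen after seeing the data.

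Same-numbered hMeDIP and input libraries did not deviate together (correlations 0.01, 0.02 and -0.03). The input libraries differed from each other only by sampling noise, so this check cannot tell whether the numbers pair them. With the replicate number as a block and all hMeDIP libraries kept separate, 11433 promoters and 11689 bodies were above input, with 1957 and 2706 above and 4637 and 4233 below the average peak. Length-scaled RNA levels, and shares restricted to protein-coding genes or to groups of span, were not run, since exon lengths are not analysed here and biotype and span are known only for genes with a peak. Enrichment rests on few input reads at small promoter peaks (43 at Sox10), which limits what a single gene can show.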
